A study of Mus musculus with 48 samples.

Results

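The effect of BuOE in flight was examined in the frontal cortex (FCT) by comparing 3 mice of the group FLT-BuOE with 3 mice of the group FLT-SAL. Each mouse gave 1 area of illumination (AOI) in this region, so the comparison rests on 6 of the 48 AOIs of the series, chosen by their region, slide and group labels. All 15782 genes of the Q3-normalized FCT table entered it, and the row of negative-control probes (NegProbe) was left out.

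The study profiled 4 brain regions of 12 mice, 3 in each of 4 groups, by GeoMx digital spatial profiling (DSP). In DSP, probes that carry a DNA tag are hybridized to a tissue section, and UV light frees the tags of a chosen area so that they can be sequenced and counted. All mice were C57BL/6 males, listed as 10 weeks old, which for the flight mice is the age at launch. The flight mice (FLT) lived for 35 days on the International Space Station and were in the laboratory at most 20 h after splashdown. The ground controls (GC) lived for 35 days in flight hardware on Earth, on a schedule that ran 3 days behind. BuOE groups received MnTnBuOE-2-PyP5+ under the skin at 1 mg/kg in 0.2 mL, first 7 days before launch and then once a week, and SAL groups received saline. AOIs were chosen on formalin-fixed sections with antibodies to GFAP and Iba1 and a nuclear stain. The 3 sections of a group shared 1 slide, so group and slide cannot be told apart in any comparison here. With 3 mice against 3, an exact permutation test of a single value cannot go below a two-sided p of 0.1.

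The compound BuOE is a porphyrin that holds manganese and acts like superoxide dismutase, the enzyme family that removes superoxide. The frontal cortex holds layers of excitatory pyramidal neurons together with GABAergic interneurons, glia and vessels. When neurons are active, calcium entry and kinases switch on immediate early genes within minutes, and these encode transcription factors such as those of the AP-1, EGR and NR4A families, or proteins that act at synapses, such as Arc. Their messenger RNAs are short-lived, and their level is widely read as a sign of recent neuronal activity.

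The tissue label was checked first. Relative to the NegProbe value of the same AOI, Slc17a7, a vesicular glutamate transporter of excitatory neurons, reached from 9.22 to 19.5 in the 6 flight AOIs. Slc17a7 ranged from 12.2 to 20.3 in the dentate gyrus AOIs of these mice, so it did not tell the FCT from that region. Fezf2, a factor of deep-layer neurons, ranged from 3.40 to 5.56. Prox1, which defines granule cells of the dentate gyrus, did not pass 2.68 in the FCT, while it ranged from 8.10 to 12.5 in the dentate gyrus AOIs of the same mice. The marker Drd1 of striatal neurons ranged from 1.54 to 2.81. Cortical markers were not all far over the negative controls: Cux2, of upper layers, ranged from 1.02 to 6.40, and Rorb, of layer 4, from 1.18 to 3.16 with a median of 1.65, below the median of 2.05 for Prox1.

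The AOIs of both groups also differed in measures that are not gene expression. The FLT-SAL AOIs each covered 198761 square micrometers and held from 568 to 602 nuclei, and the FLT-BuOE AOIs covered 145393 and held from 432 to 474. The total of deduplicated counts was from 991160 to 1579380 in FLT-SAL and from 484300 to 793099 in FLT-BuOE. The Q3-normalized NegProbe value, the background of the assay, was 16.2 ± 1.52 (SD, n = 3) in FLT-SAL and 12.6 ± 0.502 in FLT-BuOE, with no overlap (exact permutation test, two-sided, p = 0.1). In FLT-SAL 72.5% ± 3.66 of the genes passed 1.5 times the NegProbe value of the AOI, and in FLT-BuOE 85.4% ± 2.86. All these measures moved with the group. With counts thinned to 428534 in every AOI, 14 genes in place of 5 passed the thresholds given below, St6galnac5 was no longer among them, and the other 4 were. The part of area and nuclei in the results was not tested.

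Differentially expressed genes (DEGs) were called with limma on log2(Q3-normalized count + 1). A DEG had to reach an adjusted p (Benjamini-Hochberg) under 0.05 and to change by more than 0.585 on the log2 scale in either direction. In flight, Arc, Junb and Egr1 were higher with BuOE, and St6galnac5 and Tshz2 were lower. These were 3 higher genes, 0.019% of all genes tested, and 2 lower genes, 0.0127%. The 3 that rose are immediate early genes, and they are the 3 largest increases of the 15782. At an unadjusted p below 0.05, 1208 genes differed, 328 of them higher (2.08%) and 880 lower (5.58%). The median log2 fold change of all genes was -0.07. Because an AOI mixes cells, fewer cells of a type and less RNA per cell cannot be told apart in any of these values.

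**Figure D1:**
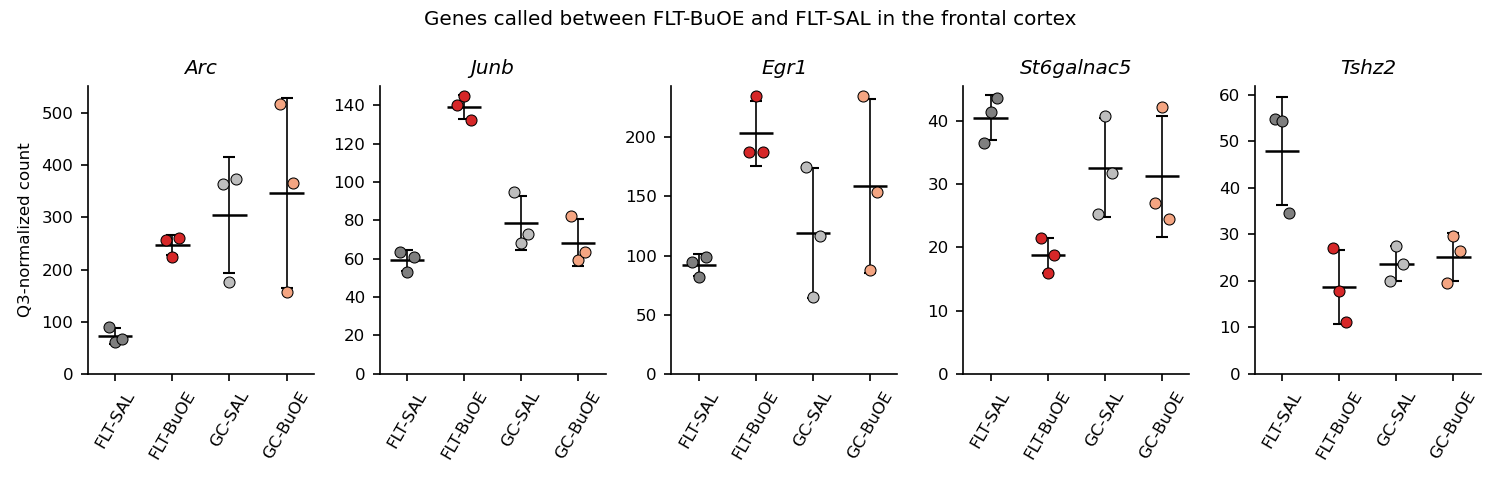
Q3-normalized counts (vertical axes, starting at 0) of the 5 DEGs in the FCT of every mouse, by group. Points are mice, horizontal lines are group means and bars are SD (n = 3). FLT-SAL and FLT-BuOE share no range in any panel, and for Arc the FLT-SAL mice, at 61.5 to 89.2, sit below all other mice.

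Arc encodes a protein of the postsynapse that controls AMPA receptor uptake (GRCm38 chromosome 15, 74669083 to 74672570, minus strand). Its Q3-normalized count was 89.2, 61.5 and 66.6 in the FLT-SAL mice and 255.9, 224.1 and 260.2 in the FLT-BuOE mice. Each FLT-BuOE mouse was over every FLT-SAL mouse, and the groups lay far apart relative to their spread. The means were 72.4 ± 14.8 and 246.7 ± 19.7 (SD, n = 3), a log2 fold change of 1.77 with a standard error of 0.235 (limma, adjusted p = 1.29e-05). On the ground the same gene was 304.5 ± 112 in GC-SAL and 346.7 ± 182 in GC-BuOE. The ground groups overlapped, with a log2 fold change of 0.10 (SE 0.235, limma, adjusted p = 0.986), and no mouse of them was as low as any FLT-SAL mouse.

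Junb encodes a subunit of the AP-1 transcription factor (GRCm38 chromosome 8, 84974484 to 84978718, minus strand). It was 63.5, 52.9 and 61.2 in FLT-SAL and 140.1, 145.0 and 132.6 in FLT-BuOE. The spread within both groups was small, with means of 59.2 ± 5.56 and 139.2 ± 6.24, and the groups did not overlap. The log2 fold change was 1.22 (SE 0.162, limma, adjusted p = 1.29e-05). The ground groups had 78.7 ± 14.1 with saline and 68.4 ± 12.2 with BuOE, a log2 fold change of -0.20 (SE 0.162, limma, adjusted p = 0.931). All 3 FLT-BuOE mice were higher than each of the other 9 mice, none of which passed 94.8.

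Egr1 encodes a zinc-finger transcription factor that neuronal activity switches on. It was 94.9, 81.5 and 98.9 in FLT-SAL and 187.3, 234.8 and 187.6 in FLT-BuOE. The groups did not overlap, and the log2 fold change was 1.13 (SE 0.225, limma, adjusted p = 0.0297). The ground groups were wide, from 65.1 to 174.8 with saline and from 88.2 to 234.7 with BuOE, and they overlapped each other and FLT-SAL. GC-BuOE also overlapped FLT-BuOE, whereas every GC-SAL mouse was below every FLT-BuOE mouse. Without FLT-SAL replicate 1, FLT-SAL replicate 2, FLT-BuOE replicate 2 or GC-SAL replicate 3, Egr1 did not pass the adjusted threshold, although its log2 fold change stayed between 1.03 and 1.19 over all 12 fits without 1 mouse.

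St6galnac5 encodes a sialyltransferase that acts on gangliosides, the sialic acid-bearing glycolipids abundant in neurons (GRCm38 chromosome 3, 152817081 to 152982246, minus strand). It was 36.6, 41.5 and 43.6 in FLT-SAL and 21.4, 16.0 and 18.8 in FLT-BuOE. Every FLT-BuOE mouse was lower, with a log2 fold change of -1.08 (SE 0.216, limma, adjusted p = 0.0297). The FLT-BuOE mean was only 1.49 times the NegProbe value, against 2.53 times in FLT-SAL, so the gene lay close to background in the treated mice. It missed the adjusted threshold without FLT-SAL replicate 1, 2 or 3, without FLT-BuOE replicate 2 and without GC-SAL replicate 3, with log2 fold changes from -1.18 to -0.98 over the fits without 1 mouse.

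Tshz2 encodes a teashirt-family zinc-finger factor (GRCm38 chromosome 2, 169633013 to 170071816, plus strand). It was 54.9, 54.3 and 34.6 in FLT-SAL and 27.2, 17.8 and 11.3 in FLT-BuOE. The lowest FLT-SAL mouse was near the highest FLT-BuOE mouse, and the log2 fold change was -1.36 (SE 0.243, limma, adjusted p = 6.19e-03). On the ground it was 23.7 ± 3.73 with saline and 25.2 ± 5.20 with BuOE, so the FLT-SAL mice were higher than every other mouse. In FLT-BuOE its level was close to background, as for St6galnac5, against 2.94 times the NegProbe value in FLT-SAL. Tshz2 missed the threshold without FLT-SAL replicate 1 or 2.

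**Figure D2:**
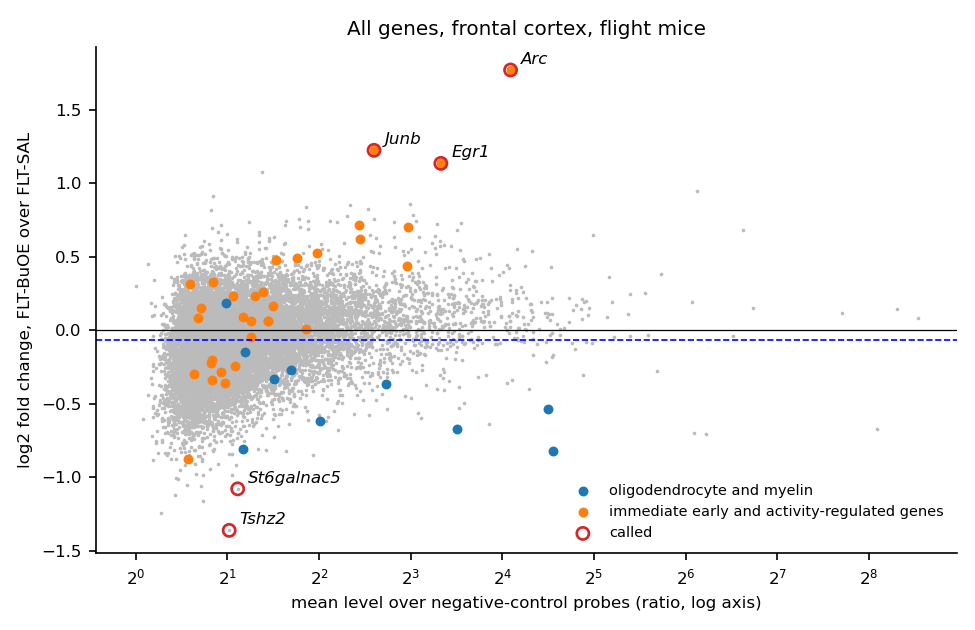
Log2 fold change of FLT-BuOE over FLT-SAL (vertical axis) against the mean level relative to NegProbe (ratio, log axis), 1 gray point for each of the 15782 genes. The dashed line marks the median of -0.07, red rings mark the 5 DEGs, and Arc, Junb and Egr1 stand above all other genes while most myelin genes (blue) lie below 0 and immediate early genes (orange) lie on both sides.

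The change of the bulk of genes depended on their level. Among the 1861 genes below 1.5 times NegProbe the median log2 fold change was -0.18, and it rose step by step to 0.10 among the 304 genes over 10 times NegProbe. On the ground the same steps ran from -0.03 to 0.10. When the NegProbe value of each AOI was subtracted before the logarithm, the median of all genes moved to 0.18, and 1068 genes were then higher and 192 lower at an unadjusted p below 0.05. Under that subtraction 2 DEGs remained, Arc at a log2 fold change of 2.06 and Junb at 1.54. Egr1 (1.32), St6galnac5 (-1.92) and Tshz2 (-2.79) kept their sign without passing the threshold.

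Counts were tested as well. With edgeR on the probe counts, 27 genes were called, 23 higher (0.146% of 15779 genes) and 4 lower (0.0254%), and they included all 5 limma DEGs. DESeq2 called 31 genes, 28 higher and 3 lower, but gave an adjusted p to 1401 genes only, and 2 of its calls, Arc and Junb, were shared by all 3 methods. DESeq2 gave no adjusted p for St6galnac5 and Tshz2, and Egr1 had 0.0906. Of the 27 edgeR calls, 21 had flight groups that did not overlap, where 3.68% of all genes lay above and 8.82% below without overlap. The 27 were called from these same values, so this count is no separate support for them.

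The genes that edgeR added were named after their values were seen. Camk2n1, an inhibitor of the kinase CaMKII, had 523.2, 646.1 and 883.7 in FLT-SAL and 1861, 1569 and 739.2 in FLT-BuOE. The third FLT-BuOE mouse lay within the FLT-SAL range (edgeR log2 fold change 1.07, adjusted p = 1.50e-03; limma, adjusted p = 0.0567). Hpca, the calcium sensor hippocalcin, had 86.3, 104.3 and 123.2 in FLT-SAL and 183.0, 181.4 and 157.6 in FLT-BuOE, without overlap (edgeR log2 fold change 0.78, adjusted p = 0.0149; limma, adjusted p = 0.055). Nrgn, which binds calmodulin at the postsynapse, had 969, 1326 and 1188 against 2180, 1737 and 1657 (edgeR log2 fold change 0.73, adjusted p = 0.0149; limma, adjusted p = 0.0955). Jdp2, a factor that dimerizes with Jun proteins, had means of 58.7 ± 7.23 and 105.3 ± 17.0 (edgeR log2 fold change 0.91, adjusted p = 0.0159; limma, adjusted p = 0.0911). These genes moved by less than Arc, and their limma values missed the threshold. On the ground they were also higher with BuOE, and none was called. The ground log2 fold changes were 0.71 for Camk2n1, 0.31 for Hpca, 0.32 for Nrgn and 0.57 for Jdp2. Flight minus ground was 0.24, 0.43, 0.36 and 0.26 in the same order (limma, adjusted p = 0.963, 0.901, 0.922 and 0.963).

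Further edgeR calls that were higher with BuOE were Pdp1, a phosphatase that activates pyruvate dehydrogenase, Kctd16, an auxiliary subunit of the GABA-B receptor, Ngef, a guanine nucleotide exchange factor, Cabp1, a calcium-binding protein, Fkbp1a, an immunophilin, Ppp1r1b, an inhibitor of protein phosphatase 1, and Osbp2, Nrsn1, Rasl11b, Fam81a, R3hdm1 and Gpr158. Their edgeR log2 fold changes were between 0.71 and 0.91. Trem1, a receptor of myeloid cells, had 28.6, 18.7 and 95.1 in FLT-BuOE and 24.0, 21.4 and 13.9 in FLT-SAL, so that 1 mouse set its mean. Without FLT-BuOE replicate 3 its limma log2 fold change was 0.25. Clec2j, a C-type lectin gene, was also spread, with 147.2, 86.3 and 50.03 in FLT-BuOE against 57.8, 46.5 and 39.1 in FLT-SAL. In the cortex, cornu ammonis 1 and dentate gyrus of the flight mice its log2 fold changes were 0.75, 0.76 and 0.83. None of these was called (limma, adjusted p = 0.112, 0.423 and 0.267). On the ground in the FCT it was at -0.30. The edgeR calls that were lower were St6galnac5, Tshz2, Mobp and Gm52523, the last with 1412, 1169 and 1132 in FLT-SAL and 612, 819 and 873 in FLT-BuOE (edgeR adjusted p = 0.0487).

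The list of immediate early and activity-regulated genes held 32 genes, all measured, and it was drawn up with earlier results of these data known, Arc included. Its median log2 fold change was 0.16, against -0.07 over all genes. At an unadjusted p below 0.05, 10 members were higher and 1 was lower, where 2.08% of all genes were higher and 5.58% lower. In 8 members all FLT-BuOE mice were over all FLT-SAL mice and in 1 all were under, where 3.68% and 8.82% of all genes did so. The summed level of the list ran from 1173 to 1276 in FLT-SAL and from 1692 to 1822 in FLT-BuOE, without overlap. On the ground it ran from 1467 to 1895 in GC-SAL and from 1516 to 2328 in GC-BuOE. Much of the flight difference in this sum came from Arc, Junb and Egr1. Their means were 72.4, 59.2 and 91.8 in FLT-SAL and 246.7, 139.2 and 203.2 in FLT-BuOE. These DEGs were called from the same values and are also among the 10 and the 8 members counted above.

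Among the transcription factors of the list, the members differed widely. Egr3 had 56.0, 74.3 and 88.1 in FLT-SAL and 104.3, 121.0 and 127.6 in FLT-BuOE (limma log2 fold change 0.70, adjusted p = 0.137). Nr4a1, an orphan nuclear receptor, had 57.8, 47.2 and 68.4 against 94.3, 112.1 and 80.05 (limma log2 fold change 0.72, adjusted p = 0.173). Npas4, which shapes inhibitory synapses, had 36.0, 28.6 and 39.1 against 48.6, 58.7 and 40.02 (limma log2 fold change 0.49, adjusted p = 0.532). The groups of these 3 genes did not overlap, but none passed the adjusted threshold.

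Fos, the partner of Junb in AP-1, was 23.5 ± 2.80 in FLT-SAL and 30.1 ± 7.07 in FLT-BuOE, with a log2 fold change of 0.33 (SE 0.223, limma, adjusted p = 0.771). Fosb had a log2 fold change of 0.06, Jun of -0.05, Egr2 of 0.09 and Egr4 of -0.20, and the groups of each overlapped. Fos and Egr2 were 1.45 times NegProbe in FLT-SAL, close to background in that group.

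Among the members that act at or beyond the synapse, Scg2, a precursor of secreted neuropeptides, had 54.3, 35.7 and 55.8 in FLT-SAL and 87.2, 76.5 and 60.03 in FLT-BuOE (limma log2 fold change 0.62, adjusted p = 0.204). Homer1, a scaffold of the postsynaptic density, had 30.3, 40.7 and 32.8 against 52.9, 37.4 and 62.5, with overlap (limma log2 fold change 0.52, adjusted p = 0.526). Nrn1, a neurite-promoting protein, had a log2 fold change of 0.44, Nptx2, which clusters AMPA receptors, of 0.48, and Bdnf, a neurotrophin, of 0.23. Dusp4, a phosphatase of MAP kinases, was the 1 member lower at an unadjusted p below 0.05, with 27.4, 28.6 and 19.8 in FLT-SAL and 8.58, 16.0 and 16.3 in FLT-BuOE (limma log2 fold change -0.88, adjusted p = 0.257). Its FLT-SAL mean was only 1.56 times NegProbe.

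Many immediate early genes carry a cAMP response element (CRE) near their start, which the factor CREB binds. Promoter windows of 300 bases, 250 before and 50 after each RefSeq start (GRCm38.p6), were searched on both strands for the CRE, its shorter form TGACG, which also lies within the full element, and 4 other motifs. Of the 32 listed genes, 24 had a window, as had 2 of the 5 DEGs. The full CRE, TGACGTCA, was in 588 of 32851 windows (1.79%) and in a window of 3 listed genes, Btg2, Dusp1 and Scg2. TGACG was in 20.8% of all windows and in a window of 17 listed genes, Junb among them. The AP-1 element TGACTCA (5.20% of windows), the EGR site GCGTGGGCG (0.612%) and the heat shock element (0.603%) were in no window of a listed gene, and the E-box CACGTG (7.15%) was in a window of 6. Genes can have several windows, and a match is only a match of letters. The 250 bases before the start are shown for Junb, the DEG with a window among the listed genes, and for Scg2, as a listed gene with the full CRE, with TGACG or the full element in capitals (106 bases before the start in Junb, and 68 in Scg2). The Junb stretch is chr8:84978749-84978998 and the Scg2 stretch chr1:79440027-79440276, both on the minus strand and written 5′ to 3′.
Junb: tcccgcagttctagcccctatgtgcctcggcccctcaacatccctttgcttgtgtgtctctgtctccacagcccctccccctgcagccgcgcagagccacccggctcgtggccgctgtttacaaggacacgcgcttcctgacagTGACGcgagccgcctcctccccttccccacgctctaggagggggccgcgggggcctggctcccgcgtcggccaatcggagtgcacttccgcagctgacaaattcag
Scg2: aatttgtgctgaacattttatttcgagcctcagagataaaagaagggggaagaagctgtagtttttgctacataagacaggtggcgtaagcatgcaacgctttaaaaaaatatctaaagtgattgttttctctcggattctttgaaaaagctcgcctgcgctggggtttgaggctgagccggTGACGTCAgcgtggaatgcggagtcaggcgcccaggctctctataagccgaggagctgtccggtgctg

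**Figure D3:**
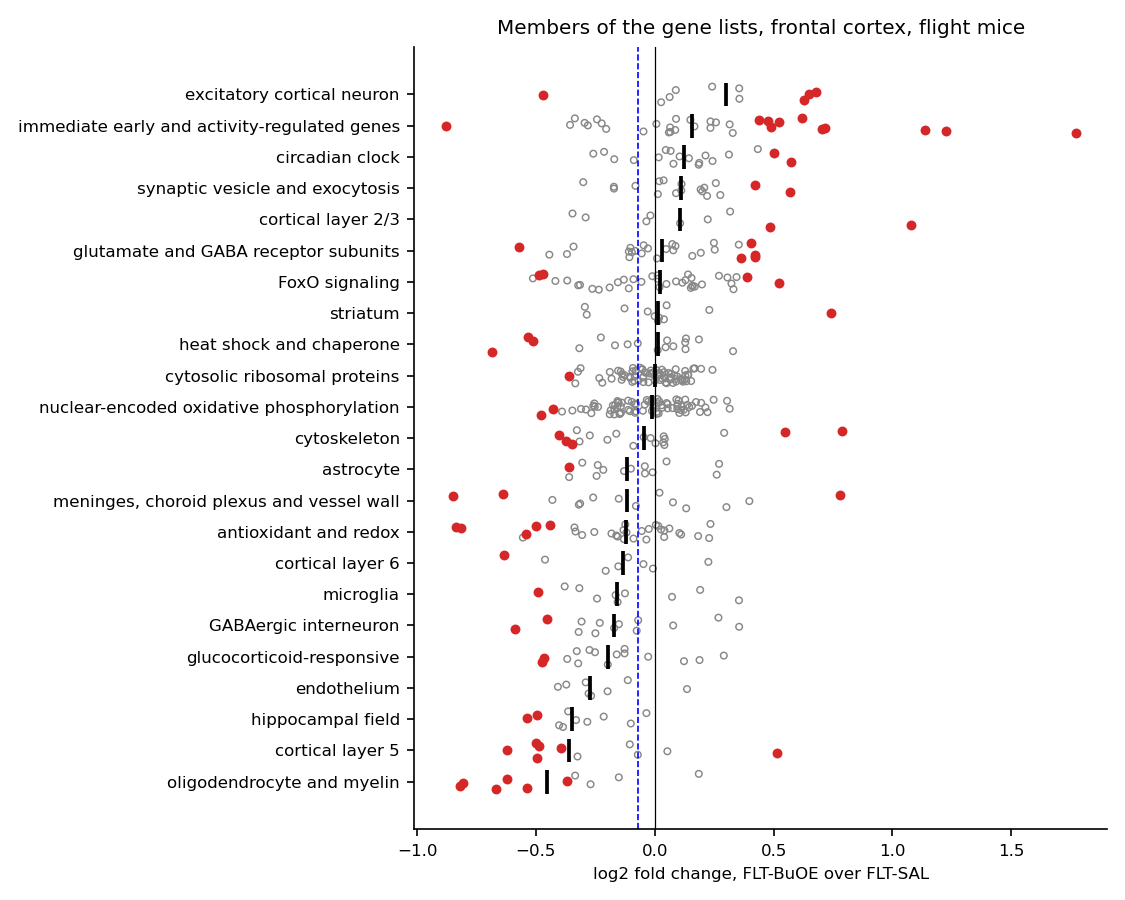
Log2 fold change of FLT-BuOE over FLT-SAL (horizontal axis) for the members of each list with at least 8 measured genes. Filled red points have an unadjusted p below 0.05, open points do not, black bars are list medians and the dashed line is the median of all genes (-0.07); the myelin list is lowest, at a median of -0.45, and the excitatory neuron list highest, at 0.30.

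Genes of oligodendrocytes and myelin had mostly lower values with BuOE. Of 10 measured members, 6 were lower and 0 higher at an unadjusted p below 0.05, and in 8 all FLT-BuOE mice were under all FLT-SAL mice, where 5.58% of all genes were lower and 8.82% lay under without overlap. The median log2 fold change was -0.45, and none passed the adjusted threshold with limma. Mobp, a protein of compact myelin, had 528.3, 749.0 and 348.1 in FLT-SAL and 234.4, 323.7 and 328.9 in FLT-BuOE (limma log2 fold change -0.82, adjusted p = 0.0713; edgeR, adjusted p = 0.0348). Mbp, the myelin basic protein, had 201.8, 292.3 and 175.4 against 122.9, 156.5 and 132.6 (limma log2 fold change -0.67, adjusted p = 0.095). Mog, on the outer myelin surface, had a log2 fold change of -0.27. The summed level of the list was from 1306 to 1991 in FLT-SAL and from 866 to 1142 in FLT-BuOE, and on the ground it was from 1096 to 1274 with saline and from 593 to 1067 with BuOE. On both the ground and in flight the BuOE mice thus had the lower myelin sums, with no overlap.

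The other glial and vascular lists gave little, beside 2.08% higher and 5.58% lower over all genes at an unadjusted p below 0.05. Of 14 astrocyte genes 0 were higher and 1 lower at an unadjusted p below 0.05 (median -0.12). Gfap, the astrocyte filament whose antibody guided AOI choice, was 31.1 ± 6.59 in FLT-SAL and 23.9 ± 3.72 in FLT-BuOE, and Slc1a2, the main glutamate transporter, was 243.6 ± 49.0 and 293.4 ± 68.3. Glul, the glutamine synthetase of astrocytes, was 310.4 ± 91.9 and 237.4 ± 45.3 (limma log2 fold change -0.36, adjusted p = 0.607). Of 10 microglial genes 0 were higher and 1 lower (median -0.16), with Csf1r, the receptor on which microglia depend, at -0.16 and Cx3cr1 at 0.35. Of 8 endothelial genes none reached an unadjusted p below 0.05, and the tight-junction gene Cldn5 was at -0.27.

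In the list of meninges, choroid plexus and vessel wall, 1 of 14 genes was higher and 2 lower (median -0.12). At the same unadjusted p below 0.05, 2.08% of all genes were higher and 5.58% lower. Col6a1, a collagen of vessel walls and meninges, had 35.5, 36.5 and 56.2 in FLT-SAL and 48.6, 74.7 and 103.8 in FLT-BuOE. These groups overlapped, and the call depended on the test (limma log2 fold change 0.78, adjusted p = 0.14; edgeR log2 fold change 0.86, adjusted p = 0.0384). Ptgds, a prostaglandin synthase made in the meninges and by oligodendrocytes, had 384.2, 523.9 and 250.5 in FLT-SAL and 251.6, 247.3 and 213.9 in FLT-BuOE (limma log2 fold change -0.64, adjusted p = 0.416). The third FLT-SAL mouse reached the FLT-BuOE range, and both flight groups were over both ground groups, at 107.0 ± 24.4 and 93.0 ± 39.7.

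Neuronal lists are given by cell class, beside 2.08% higher and 5.58% lower over all genes at an unadjusted p below 0.05. Of 10 excitatory markers 3 were higher and 1 lower at an unadjusted p below 0.05 (median 0.30). Their summed level was from 1703 to 2316 in FLT-SAL and from 2784 to 3361 in FLT-BuOE, without overlap. On the ground it was from 2051 to 2133 in GC-SAL and from 2441 to 2808 in GC-BuOE, also without overlap. Most of the flight difference in this sum came from Nrgn, a member of the list with flight means of 1161 and 1858, and from Camk2a. Neurod2, a factor of excitatory neurons, was the lower member, at -0.47, and Baiap2 was at 0.09. Camk2a, the alpha subunit of CaMKII, was 363.8 ± 109 against 559.7 ± 108 (limma log2 fold change 0.65, adjusted p = 0.214), whereas Slc17a7 was nearly level at 0.03 and Neurod6 at 0.06. Of 13 interneuron genes 0 were higher and 2 lower (median -0.17), and Sst, a neuropeptide of one interneuron class, was 78.5 ± 29.1 in FLT-SAL and 51.4 ± 16.4 in FLT-BuOE (limma log2 fold change -0.59, adjusted p = 0.435).

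Layer markers had values in both directions. Cux2, a factor of layers 2 to 4, had 18.3, 27.9 and 38.2 in FLT-SAL and 77.2, 56.0 and 45.0 in FLT-BuOE, without overlap (limma log2 fold change 1.08, adjusted p = 0.055; edgeR, adjusted p = 4.68e-03). Its homolog Cux1 had a log2 fold change of 0.49 and Lamp5 of 0.22. Lamp5 was at 1.19 in the cortex AOIs of the flight mice (limma, adjusted p = 2.06e-05). On the ground in the FCT it was at 0.81 (limma, adjusted p = 0.319). Of 9 genes of layer 2/3, 2 were higher and 0 lower, with a median of 0.11. This median was 0.39 in the cortex AOIs of the flight mice and 0.27 on the ground in the FCT. Of 5 genes of layer 4, Rorb among them at 0.43, none reached an unadjusted p below 0.05 (median 0.32). Of 10 genes of layer 5, 1 was higher and 5 were lower (median -0.36), where 2.08% of all genes were higher and 5.58% lower. Etv1 of layer 5 had 88.6, 87.9 and 83.2 in FLT-SAL and 70.0, 76.5 and 42.5 in FLT-BuOE, and Fezf2 was at -0.33. Pcp4, a calmodulin-binding protein of deep layers, was the higher one, with 144.4, 197.4 and 362.7 in FLT-BuOE against 112.6, 202.3 and 154.7, so that it rested on the third mouse. Of 8 layer 6 genes 0 were higher and 1 was lower (median -0.13), and Rprm had 22.9 and 24.0 in the first FLT-BuOE mice but 76.3 in the third.

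Markers of neighboring structures were examined as well, beside 2.08% higher and 5.58% lower over all genes at an unadjusted p below 0.05. Of 11 striatal genes 1 was higher and 0 lower (median 0.01), the higher one being Ppp1r1b, which deep cortical neurons also express, at 45.9 ± 10.5 in FLT-SAL and 76.1 ± 3.76 in FLT-BuOE, or 6.03 times NegProbe in FLT-BuOE. Of 4 genes of the olfactory bulb and anterior olfactory nucleus 0 were higher or lower (median -0.03), and of 10 hippocampal genes 0 were higher and 2 lower (median -0.35), with Prox1 at -0.39.

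The antioxidant and redox list includes Sod1 and Sod2, members of the enzyme family that BuOE acts like. Of 32 measured antioxidant and redox genes, 0 were higher and 5 lower at an unadjusted p below 0.05, with a median of -0.12. Over all genes 2.08% were higher and 5.58% lower. With NegProbe subtracted the list median was 0.04, beside 0.18 over all genes. Sod1, the cytosolic superoxide dismutase, was 124.0 ± 8.85 in FLT-SAL and 121.6 ± 18.1 in FLT-BuOE, a log2 fold change of -0.04 (SE 0.160, limma, adjusted p = 0.978). Sod2, the mitochondrial enzyme, was 87.4 ± 10.4 and 80.6 ± 17.5 (-0.13, SE 0.164), and Cat, the catalase that removes hydrogen peroxide, was at -0.09. Gpx4, which reduces lipid peroxides, was at 0.04. Nfe2l2, the transcription factor NRF2 that controls many of these genes, had 34.9, 30.0 and 33.7 in FLT-SAL and 21.4, 18.7 and 15.01 in FLT-BuOE. The groups did not overlap (limma log2 fold change -0.82, adjusted p = 0.151). In FLT-BuOE Nfe2l2 was close to background, at 1.46 times NegProbe against 2.03 times in FLT-SAL. In the cortex AOIs of the flight mice its log2 fold change was 0.37. The other 4 lower members were Prdx6, G6pdx, Mt1 and Mt3, none of which passed the adjusted threshold.

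Of 18 clock genes 2 were higher and 0 lower (median 0.12). At the same unadjusted p below 0.05, 2.08% of all genes were higher and 5.58% lower, which is the background for each list here. Per1, a clock repressor that activity also induces, had 72.0, 72.2 and 75.1 in FLT-SAL and 110.1, 113.8 and 103.8 in FLT-BuOE (limma log2 fold change 0.57, adjusted p = 0.152), and its groups were tight and apart. Of 17 heat shock genes 0 were higher and 3 lower (median 0.01), with Hspa8, a constitutive chaperone, at 0.01. The 4 cold-inducible genes had 0 in either direction (median 0.10), with Cirbp at 0.14 and Rbm3 at 0.00. Of 15 glucocorticoid-responsive genes 0 were higher and 2 lower (median -0.20), and Sgk1, a kinase induced by corticosterone, was 93.3 ± 14.6 and 75.5 ± 19.1.

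Of 37 genes of FoxO signaling 2 were higher and 2 lower (median 0.02), with Foxo1 itself at -0.24. The shares over all genes, for this and the next lists, were 2.08% higher and 5.58% lower. Of 18 genes of synaptic vesicles and exocytosis 2 were higher and 0 lower (median 0.11). Stx1a, a syntaxin of the release machinery, had 76.6, 105.1 and 153.3 against 185.8, 158.3 and 138.8 (limma log2 fold change 0.57, adjusted p = 0.271), and Syp, an abundant vesicle protein, was at 0.22. Of 26 glutamate and GABA receptor subunits 4 were higher and 1 lower (median 0.03), with Gria1 at 0.01. Of 19 cytoskeletal genes 2 were higher and 3 lower (median -0.05), with Actb at -0.09. The 75 cytosolic ribosomal genes (0 higher, 1 lower, median 0.00) and the 78 genes of oxidative phosphorylation (0 higher, 2 lower, median -0.01) stayed near the median of all genes. Dmrt2 (-0.12) and Pde5a (-0.09), a developmental factor and a phosphodiesterase that the study names for this region, did not differ beyond their spread between FLT-BuOE and FLT-SAL (limma, adjusted p = 0.939 and 0.958).

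**Figure D4:**
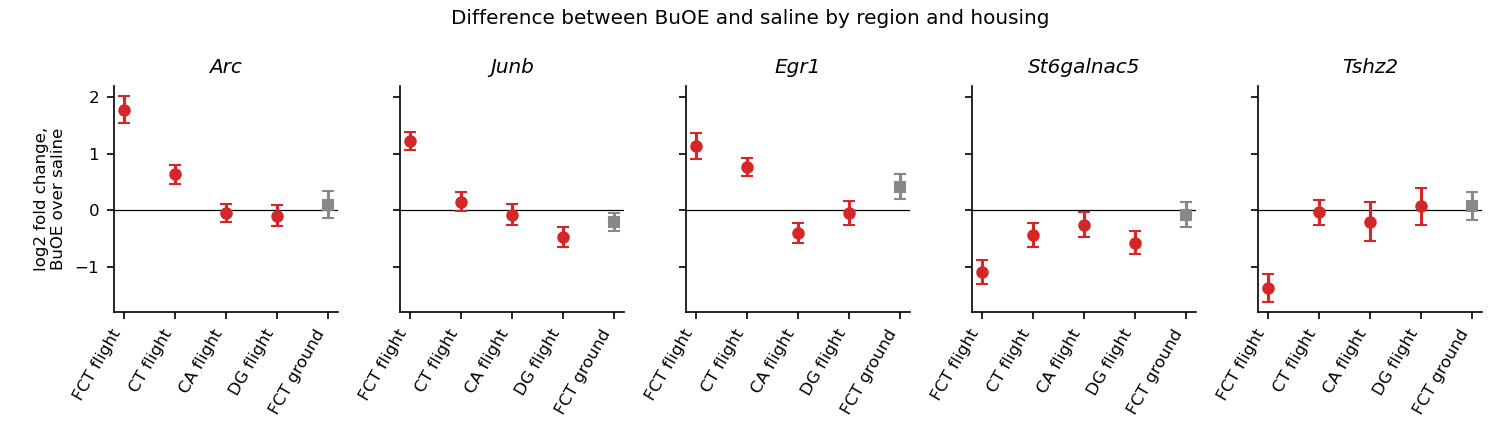
Log2 fold change of BuOE over saline (vertical axis, ± SE, 3 mice a group) for the 5 DEGs in the 4 regions of the flight mice (red circles) and in the FCT of the ground mice (gray squares). Arc stands at 1.77 in the FCT, 0.64 in the CT and -0.04 in the CA.

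The next question was whether BuOE acted differently in flight and on the ground. In the FCT of the ground mice, 1 gene (0.00634%) was called between GC-BuOE and GC-SAL, Cacna2d3, a calcium channel subunit (log2 fold change 1.32, limma, adjusted p = 0.0184). Its values were 14.8, 22.8 and 35.3 in GC-SAL and 73.6, 48.2 and 56.4 in GC-BuOE, whereas in flight its log2 fold change was 0.38. Without GC-SAL replicate 1, GC-BuOE replicate 1 or GC-BuOE replicate 3 its ground call was lost, at a log2 fold change of 1.02, 1.15 and 1.34 (limma, adjusted p = 0.313, 0.354 and 0.0658). The difference of both effects, flight minus ground, was called for 1 gene (0.00634%), Junb, at 1.42 on the log2 scale (SE 0.230, limma, adjusted p = 2.50e-03). It was called in each of the 12 fits without 1 mouse but not with counts thinned to equal depth, where the difference was 1.29 (limma, adjusted p = 0.0698). For Arc this difference was 1.67 (SE 0.332) and did not pass (limma, adjusted p = 0.0683), although edgeR called Arc, Junb and Col6a1. For Egr1 it was 0.72, for St6galnac5 -1.01 and for Tshz2 -1.44 (limma, adjusted p = 0.901, 0.900 and 0.512). An unadjusted p below 0.05 for this difference was reached by 857 of the 15782 genes, of which 1 was called.

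Among the other regions of the flight mice, the cortex (CT) gave 11 DEGs, cornu ammonis 1 (CA) 1 and the dentate gyrus (DG) 0 (limma). In the DG, 978 of 15782 genes had an unadjusted p below 0.05, and none was called. Arc in the CT was 109.0 ± 18.4 with saline and 170.3 ± 31.7 with BuOE, a log2 fold change of 0.64 (SE 0.171, limma, adjusted p = 0.163), in the CA -0.04 and in the DG -0.09. Junb was 65.6 ± 5.42 and 73.7 ± 11.7 in the CT (0.16), with -0.07 in the CA and -0.47 in the DG. Egr1 was the 1 DEG of the FCT that was also called in the CT, with 88.4 ± 15.7 and 151.6 ± 31.5 (0.77, SE 0.163, limma, adjusted p = 0.0301), and it was at -0.40 in the CA and -0.05 in the DG. St6galnac5 had -0.43, -0.25 and -0.57 in the CT, CA and DG, and Tshz2 -0.04, -0.20 and 0.07.

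Taking the difference between FCT and CT within each mouse, 0 genes (0.0%) were called for a different effect of BuOE in flight (limma, smallest adjusted p = 0.509). An unadjusted p below 0.05 was reached by 907 of 15782 genes. For Junb the difference was 1.07 (SE 0.274), for Arc 1.13 (SE 0.378) and for Tshz2 -1.33 (SE 0.340), each with an adjusted p of 0.818 (limma). A call in the FCT and none in the CT thus did not amount to a called difference between the regions. The median of the myelin list in the CT was -0.62, beside -0.45 in the FCT and, on the ground in the FCT, -0.34, and that of the immediate early list was 0.10 in the CT and 0.08 on the ground, beside 0.16.

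**Figure D5:**
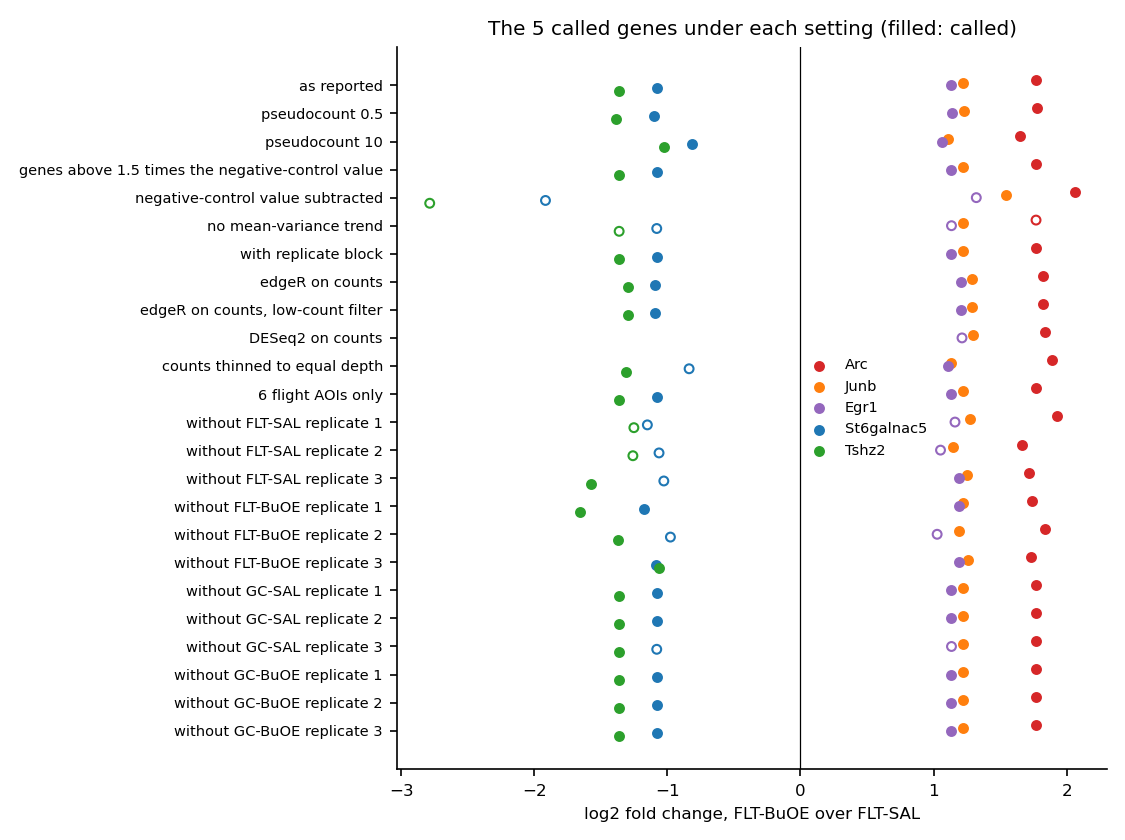
Log2 fold change of FLT-BuOE over FLT-SAL (horizontal axis) for the 5 DEGs under each setting of the test and without each mouse; filled points pass the thresholds, open points do not, and St6galnac5 and Tshz2 have no point under DESeq2. All points keep the side of 0 on which the gene was reported, Junb is filled in all 23 alternatives and Arc in 22.

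The number of DEGs depended on single mice. Without FLT-SAL replicate 1 or 2 there were 2, and without GC-SAL replicate 3 there were 3. Without FLT-SAL replicate 3 there were 26, 20 higher and 6 lower, and without FLT-BuOE replicate 3 there were 42, 25 higher and 17 lower. Arc and Junb were among them in each of the 12 fits. Arc had log2 fold changes from 1.66 to 1.93 there and Junb from 1.15 to 1.28. Among the immediate early list, from 8 to 15 members were higher at an unadjusted p below 0.05 over all settings, and among the myelin list from 4 to 7 were lower.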

How the data were processed

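Expression was measured by GeoMx DSP in 1 AOI per mouse and region, and groups were taken from the sample labels. The authors ran the GeoMx NGS Pipeline (version 2.3.4 in the file headers), which trims, stitches, aligns to probe tags and removes duplicates, and deposited raw counts for 20175 probes per AOI. No genome build enters this step. The authors then scaled each AOI by its upper quartile and deposited this Q3-normalized signal for 15782 genes per region. The authors' own comparisons, with log2 fold changes, p-values and adjusted p-values, were not used.

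The 12 FCT AOIs entered 1 limma fit (version 3.58.1) on log2(Q3-normalized count + 1), with the group as factor, 8 residual degrees of freedom, a trend of variance with mean, and p-values adjusted by the Benjamini-Hochberg method over all 15782 genes. A fold change is on this log2(value + 1) scale, which understates the change of low genes. The FCT minus CT contrast used the difference within each mouse. No fold threshold was applied to the contrasts of effects. Dividing by the step between values gave whole counts for 99.98% of values, within 0.02 of a count, and 15779 genes matched exactly 1 probe. On these counts edgeR 4.0.16 (quasi-likelihood) and DESeq2 1.42.0 were run as alternatives, with R 4.3.3. Other alternatives were pseudocounts of 0.5 and 10, genes over 1.5 times NegProbe, subtraction of NegProbe, no trend, a replicate block, counts thinned to 428534 per AOI, the 6 AOIs of a comparison alone, and each mouse left out. Recounting the lists in each setting was added after the data were seen. The fits were tested on simulated data.

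Replicates were distinct mice. Same-numbered mice deviated from their group means with correlations of 0.0964, 0.0241 and 0.0264 in flight and 0.0183, 0.0553 and 0.0570 on the ground. For mice of different numbers they ranged from -0.0646 to 0.0444 in flight and from -0.0611 to 0.0113 on the ground. The correlations were all small, and the numbers were not taken as pairs. The replicate block was run as an alternative. The members and gene lists were chosen with earlier results of these data known. Named genes are all DEGs, members of lists in written order, genes the study names for this region and those called between effects; members named for an unadjusted p below 0.05 and genes called by edgeR were named after their values were seen. Some genes that these rules name are not reported here. Gene coordinates are from GENCODE on GRCm38 and promoter sequences from RefSeq on GRCm38.p6.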

Additional observations from a re-analysis of the deposited data

Results flagged for a closer look

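Junb stood out because the effect of BuOE differed between flight and ground by a test of the difference itself. Flight minus ground was 1.42 on the log2 scale (limma, adjusted p = 2.50e-03). Its effect was 1.22 in flight, where all 3 FLT-BuOE mice were higher than all 3 FLT-SAL mice, and -0.20 on the ground, where the groups overlapped. The difference was called in 20 of 22 alternatives, with values from 1.28 to 1.77, and missed the threshold without the mean-variance trend (adjusted p = 0.387) and with thinned counts (adjusted p = 0.0698), where the 1 gene called was Arc.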

How the results depend on the processing

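Of the 23 alternatives, Junb was called in all 23 and Arc in 22, Arc missing the threshold without the mean-variance trend (adjusted p = 0.0919). Tshz2 was called in 18 of 22, Egr1 in 16 of 23 and St6galnac5 in 14 of 22, and all 5 kept their direction in each. The 5 DEGs of the flight comparison became 9 with a pseudocount of 10, 2 with NegProbe subtracted, 1 without the trend, 27 with edgeR (with or without its low-count filter), 31 with DESeq2 and 14 with thinned counts, and from 2 to 42 when 1 mouse was left out. With the replicate block 31 genes were called, 19 higher and 12 lower. On the ground, 1 call became 0 with NegProbe subtracted (909 genes at an unadjusted p below 0.05), without the trend (843) and with DESeq2 (319), 8 with edgeR in both forms, 2 with thinned counts and 5 with the 6 ground AOIs alone, and it ranged from 0 to 4 without 1 mouse. The flight minus ground count of 1 became 0 without the trend (850 genes at an unadjusted p below 0.05), 3 with the replicate block and 3 with edgeR in both forms, and it ranged from 1 to 3 without 1 mouse. The FCT minus CT count was 0 in every alternative run. The cause of these shifts was not tested. Of the 85 named genes that were not called, 25 changed sign in at least 1 alternative. Depth limits genes near NegProbe, where St6galnac5 and Tshz2 lay in FLT-BuOE, and 3 mice a group on 1 slide each limit every comparison.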
